A study of Sus scrofa with 24 samples.

Results

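The cytochrome P450 family was followed across 4 porcine tissues through every array probe that is not a control and whose gene name is CYP followed by a digit. These were 97 probes of 39 gene names, and each gene was read on its brightest probe, taken as the mean of the 24 arrays. Of the 39 genes, 32 were kept because their probe was marked well above background by the scanner software on all 6 arrays of at least 1 tissue, out of 31219 gene names that passed the same filter. The kept genes fall into 14 families and 23 subfamilies, with 10 genes in family 2, 4 each in families 3 and 4, 3 in family 1, 2 in family 7 and 1 each in families 11, 19, 20, 21, 24, 26, 27, 39 and 51. The tissues came from 6 crossbred piglets (animals 68, 69, 70, 71, 73 and 75) that had been weaned on day 28, fed freely and killed at 10 weeks of age, and the labels give no treatment. The groups are Liver, Peyer (a portion of the jejunum that holds a Peyer's patch, the lymphoid follicles of the gut wall), Jejunum (a portion without a patch) and Spleen, each with 1 array per animal (n = 6). The arrays are one-colour 60-base oligonucleotide arrays hybridised with cRNA made from 200 ng of total RNA, and a level is the log2 signal minus the 75th percentile of its array, so that 0 is the 75th percentile and 1 unit is a 2-fold step. A difference is given ± its SE from the fit, and a tissue mean ± its SD over 6 animals.

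Cytochromes P450 are haem enzymes that insert an oxygen atom from molecular oxygen into a substrate, with electrons passed on by P450 oxidoreductase or, in mitochondria, by ferredoxin. Members of the first families oxidise drugs, plant compounds and pollutants, and are best known from hepatocytes and from the absorptive cells of the small intestine. The other members act on the body's own lipids, with separate enzymes for fatty acids, cholesterol, bile acids, steroid hormones, retinoic acid and vitamin D.

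The 75th percentile signal was 423.8 to 525.7 in Liver, 876.7 to 2261.9 in Peyer, 680.9 to 1001.2 in Jejunum and 275.4 to 1098.1 in Spleen, and 60.4% to 75.6% of probes were well above background. Liver and Spleen shared slides 1 to 3, and Peyer and Jejunum shared slides 4 to 6, so that in the other 4 comparisons tissue and slide set cannot be told apart. One array stood apart from its label: the Peyer array of animal 71 correlated at 0.992 with the Jejunum array of the same animal and at a mean of 0.956 with the other Peyer arrays. The summed level of 5 B-cell markers was 1.45 on that array, against 4.82 to 5.32 on the other Peyer arrays, -1.68 to -1.04 in Jejunum and 3.64 to 4.39 in Spleen. Calls in comparisons that use Peyer are therefore given with and without it, while single differences include it unless stated. The summed level of 6 hepatocyte markers was 11.49 to 11.89 in Liver, and that of 5 enterocyte markers was 7.69 to 9.37 in Peyer and 8.97 to 9.47 in Jejunum. In whole tissue, fewer cells of a type and less RNA per cell cannot be told apart.

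The 60-base sequences of 4 probes are shown, as the deposited files give them, because they bear on genes where animals or probes differed. Only that of CYP2C49 is the probe whose levels are used, and the others are further probes of CYP1A1, CYP1A2 and CYP2A19. The CYP1A1 probe is the dimmer of its pair, and its capitals mark the codons of the oxygen-binding I-helix signature (alanine or glycine, glycine, any residue, acidic residue, threonine). The CYP2A19 probe is 1 of 7 for that gene, and its capitals mark the codon of the cysteine that binds the haem iron. For CYP1A2 and CYP2C49 neither signature lies in the probe, and no letters are in capitals.
CYP1A1: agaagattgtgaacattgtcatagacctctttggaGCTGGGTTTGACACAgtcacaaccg
CYP1A2: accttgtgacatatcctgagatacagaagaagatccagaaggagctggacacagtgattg
CYP2A19: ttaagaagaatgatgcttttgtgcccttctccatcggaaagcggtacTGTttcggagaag
CYP2C49: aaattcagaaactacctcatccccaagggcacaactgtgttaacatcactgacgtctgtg
Probes of different genes were also set against each other over at least 30 aligned bases. The probe named CYP2A7 was identical to the CYP2A19 probe shown above at 60 of 60 bases, so those 2 probes are 1 sequence, while the CYP2A19 levels given come from another, brighter probe. In the gene counts CYP2A7 and CYP2A19 stand as separate genes, as do CYP3A39 and CYP3A46, names that RefSeq now treats as synonyms. The CYP4A21 and CYP4A24 probes shared 47 of 49 aligned bases, and CYP19A3 and CYP19A2, neither of which was kept, shared 44 of 48.

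Liver held the highest mean of 28 of the 32 kept genes, Jejunum that of CYP4F2 and CYP2R1, and Spleen that of CYP1B1 and CYP1A2. For CYP1A2 this holds on its brightest probe, which was nearly flat, while its RefSeq probe was highest in Liver by 10.13 over Spleen; whether the brightest probe reads CYP1A2 was not tested. A gene was counted as changed at an adjusted p under 0.05 (limma, Benjamini-Hochberg over 42650 probes) and a log2 difference of at least 1. Against Spleen, 25 of the 32 genes were higher in Liver, 1 was lower and 6 did not pass, where 38.5% of all gene names tested passed (15.8% higher, 22.7% lower). The median log2 difference of the 32 genes was 7.14 in Liver minus Spleen, against -0.17 over all gene names. Slides 1 and 2 alone each gave 25 higher genes, and slide 3 gave 23. In Liver minus Jejunum 20 genes were higher and 2 lower, against a background of 32.2% (14.3% higher, 17.9% lower). The lower ones were CYP4F2 and CYP1B1, of which the second (-1.41 ± 0.58 (adjusted p = 0.0406)) was lost without animal 68, 69, 70, 71 or 73. Liver minus Peyer gave 24 higher and 1 lower, against 40.1% (20.4% higher, 19.8% lower), and the same counts of 24 and 1 without the Peyer array of animal 71. A stricter rule, which asks for a 4-fold lead (2 log2 units) on each other tissue, picked 18 of the 32 genes for Liver (4.68% of all gene names), 1 for Spleen (1.47%), and 0 for Peyer (0.141%) or Jejunum (0.154%), where no kept gene exceeded every other tissue by that size with or without adjustment. On all 24 arrays 16 of the genes were well above background, and 5 met that on all 6 arrays in Liver alone. These 5 are CYP26A1, CYP2A7, CYP2C33, CYP2C34 and CYP7A1, all among the 18 picked for Liver. They were kept through Liver, so their enrichment there is not independent of the filter.

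**Figure D1:**
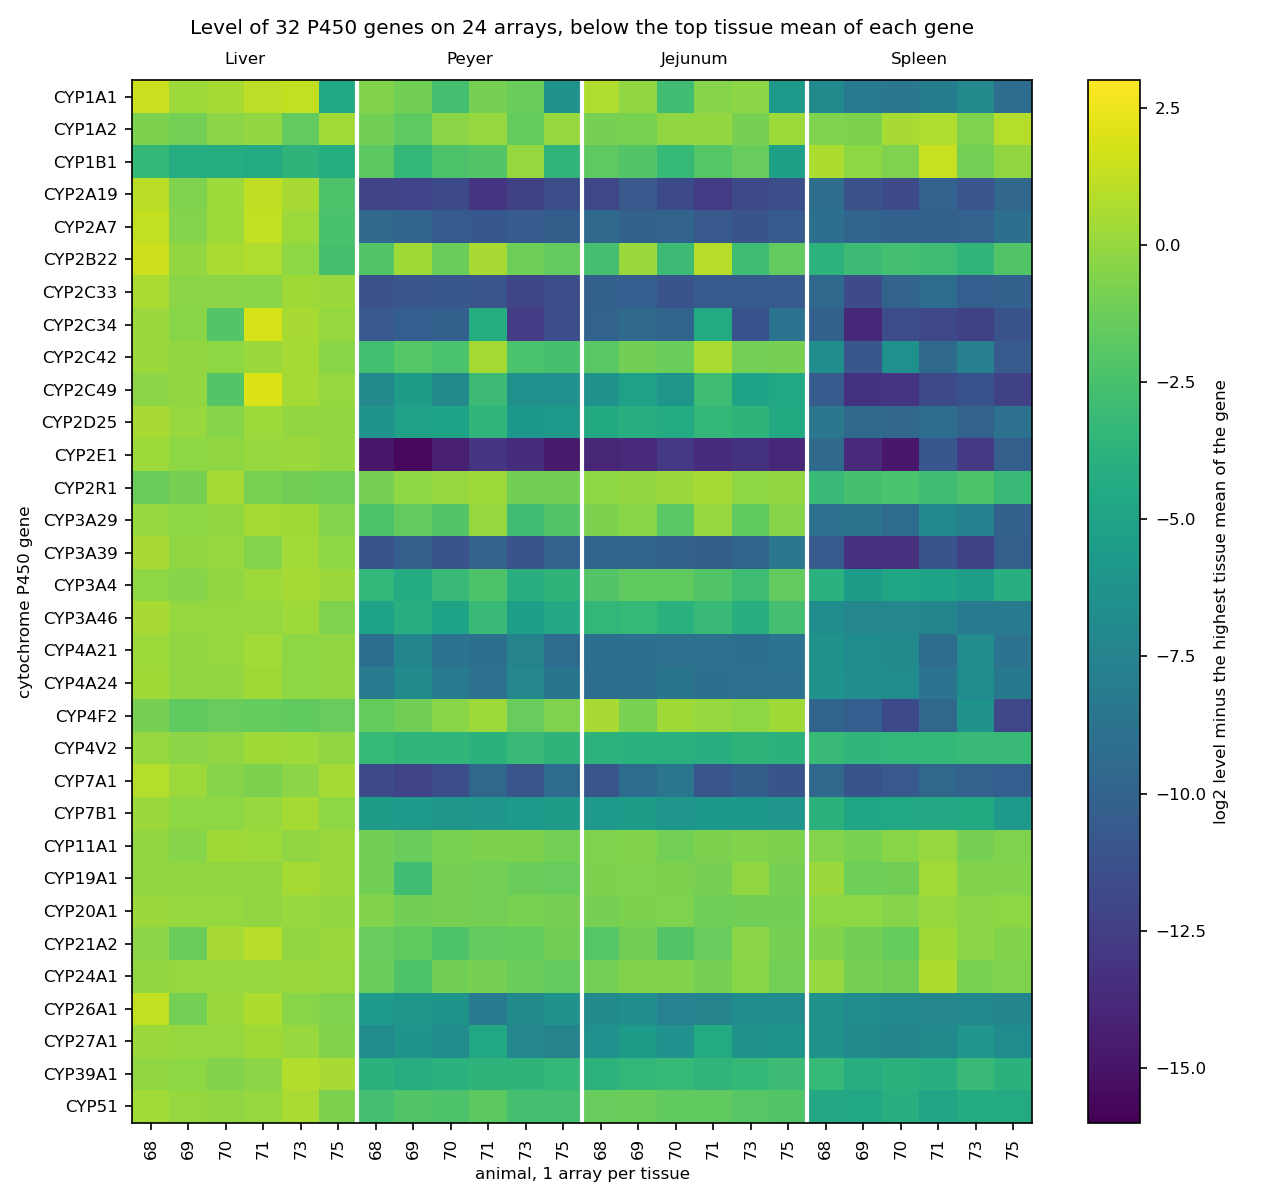
Level of the 32 kept P450 genes on each of the 24 arrays, as log2 level minus the highest tissue mean of that gene; columns are animals within Liver, Peyer, Jejunum and Spleen, and rows are genes ordered by family. Most rows are brightest in Liver, with CYP1A1, CYP2C42, CYP2R1, CYP3A29 and CYP4F2 bright in both gut portions as well and CYP1B1 brightest in Spleen.

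Among the drug-oxidising families, 7 gene names stood in Liver far above the other 3 tissues. CYP2E1, which oxidises ethanol, small solvents and, in pigs, skatole, had the widest range of tissue means in the family. For CYP2E1 the arrays gave 8.35 to 8.77 (median 8.56) in Liver, -6.94 to -4.53 (median -5.91) in Peyer, -5.37 to -4.32 (median -5.08) in Jejunum and -6.12 to -0.88 (median -3.25) in Spleen. The Liver values did not overlap any other tissue, and the difference was 14.29 ± 0.62 (adjusted p = 1.55e-15) in Liver minus Peyer and 11.96 ± 0.62 (adjusted p = 4.05e-14) in Liver minus Spleen. Spleen spread far more than the gut portions for this gene, over 5 log2 units.
CYP2A19, the porcine counterpart of the coumarin-hydroxylating human CYP2A enzymes, showed the same arrangement. The CYP2A19 values ran 4.24 to 7.70 (median 6.90) in Liver, -6.57 to -4.88 (median -5.60) in Peyer, -6.08 to -4.16 (median -5.25) in Jejunum and -5.08 to -2.69 (median -3.98) in Spleen. The probe named CYP2A7, whose sequence is that of another CYP2A19 probe, followed it and is no separate support. CYP2A7 gave 1.73 to 5.42 (median 4.38) in Liver, -6.61 to -5.36 (median -6.29) in Peyer, -6.88 to -5.33 (median -6.15) in Jejunum and -5.98 to -4.82 (median -5.79) in Spleen. For both names animal 75 had the lowest Liver value, and the Liver minus Spleen difference was 10.47 ± 0.50 (adjusted p = 6.49e-15) for CYP2A19 and 9.70 ± 0.45 (adjusted p = 4.32e-15) for CYP2A7.
The CYP2C subfamily oxidises many drugs and arachidonic acid. The range of CYP2C33 was 4.61 to 5.57 (median 4.88) in Liver, -7.03 to -5.85 (median -6.18) in Peyer, -6.09 to -5.22 (median -5.61) in Jejunum and -6.66 to -4.31 (median -5.07) in Spleen. Levels of CYP2C34 spanned 3.81 to 7.75 (median 5.99) in Liver, -6.79 to 1.71 (median -4.59) in Peyer, -5.26 to 1.56 (median -3.69) in Jejunum and -7.93 to -4.14 (median -5.79) in Spleen. Both were Liver genes, with differences of 10.16 ± 0.29 (adjusted p = 5.68e-19) and 11.80 ± 1.13 (adjusted p = 2.44e-09) in Liver minus Spleen, but CYP2C34 was also high in Peyer and Jejunum of a single animal, number 71. CYP2C49 differed from them in that, on the probe used, both gut portions stood well above Spleen. CYP2C49 levels were 3.0 to 7.11 (median 5.05) in Liver, -1.95 to 2.12 (median -1.30) in Peyer, -1.15 to 2.17 (median 0.05) in Jejunum and -8.12 to -5.41 (median -6.93) in Spleen. Its difference was 12.02 ± 0.69 (adjusted p = 2.66e-13) in Liver minus Spleen and 7.04 ± 0.69 (adjusted p = 6.85e-09) in Jejunum minus Spleen. Only 1 of 6 Spleen arrays was well above background for it, so both are differences from a tissue near background. Over the 3 CYP2C49 probes Jejunum minus Spleen ran from 2.30 to 7.04 and Peyer minus Spleen from 0.85 to 6.16, and 2 of the 3 passed in each.
CYP3A39 belongs to the subfamily that in humans carries out the largest share of drug oxidation, and in RefSeq its name is now a synonym of CYP3A46. For CYP3A39 the arrays gave 7.96 to 8.98 (median 8.45) in Liver, -2.68 to -1.45 (median -2.15) in Peyer, -1.87 to 0.04 (median -1.37) in Jejunum and -4.81 to -1.72 (median -3.16) in Spleen. Liver stood 11.78 ± 0.45 (adjusted p = 1.19e-16) above Spleen, and the gut portions lay between them. The probes of these synonyms gave unlike gut levels, with a Liver minus Peyer difference of 10.60 for CYP3A39 and 4.51 for CYP3A46. Which transcripts each of them reads was not tested.

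A second set of genes had higher means in Liver and in both gut portions than in Spleen. The means of CYP3A4 and CYP2B22 were below 0 in every tissue. CYP3A46 and CYP2D25, a porcine enzyme that hydroxylates vitamin D, were enriched in Liver by the stricter rule and still exceeded Spleen by several log2 units in both gut portions. The CYP3A46 values ran 6.71 to 7.92 (median 7.40) in Liver, 2.04 to 4.25 (median 2.67) in Peyer, 3.36 to 4.79 (median 4.06) in Jejunum and -0.80 to 0.68 (median 0.13) in Spleen. CYP2D25 gave 8.01 to 8.95 (median 8.45) in Liver, 2.31 to 4.87 (median 3.04) in Peyer, 4.01 to 5.13 (median 4.29) in Jejunum and -1.5 to -0.02 (median -0.85) in Spleen. Liver, Jejunum and Spleen did not overlap for either gene, and the Jejunum minus Spleen difference was 4.08 ± 0.33 (adjusted p = 2e-10) for CYP3A46 and 5.24 ± 0.33 (adjusted p = 3.13e-12) for CYP2D25. CYP3A4, a probe designed on the human record of the main human drug-oxidising P450, gave the same order of tissues. The range of CYP3A4 was -1.98 to -1.09 (median -1.47) in Liver, -5.81 to -3.79 (median -5.03) in Peyer, -4.44 to -3.05 (median -3.38) in Jejunum and -6.97 to -5.34 (median -6.42) in Spleen. It was well above background on no Spleen array, so that Liver was at least 15.5-fold and Jejunum at least 3.88-fold above Spleen, and the fitted Liver minus Spleen difference was 4.76 ± 0.32 (adjusted p = 5.63e-12). By the stricter rule it too was enriched in Liver.
CYP3A29 and CYP2C42 were high in Jejunum as well as in Liver. CYP3A29 averaged 5.46 ± 0.37 in Liver, 3.62 ± 0.98 in Peyer, 4.64 ± 0.77 in Jejunum and -3.18 ± 1.09 in Spleen, and the Liver minus Jejunum difference was 0.83 ± 0.46 (adjusted p = 0.124), which did not pass. CYP2C42 averaged 2.84 ± 0.30 in Liver, 0.91 ± 1.18 in Peyer, 1.94 ± 0.80 in Jejunum and -5.76 ± 1.94 in Spleen, with a Liver minus Jejunum difference of 0.90 ± 0.66 (adjusted p = 0.244), which did not pass either. In Liver minus Peyer both passed, at 1.84 ± 0.46 (adjusted p = 0.00115) for CYP3A29 and 1.93 ± 0.66 (adjusted p = 0.0118) for CYP2C42, and the second was lost without animal 73 (log2 difference 1.76, adjusted p = 0.0524).
CYP1A1, the hydrocarbon-oxidising enzyme induced through the aryl hydrocarbon receptor, averaged 3.62 ± 2.31 in Liver, 1.47 ± 2.16 in Peyer, 2.18 ± 2.41 in Jejunum and -4.37 ± 0.85 in Spleen. Jejunum exceeded Spleen by 6.55 ± 1.1 (adjusted p = 1.83e-05). The Liver minus Jejunum difference was 1.44 ± 1.1 (adjusted p = 0.262) and did not pass over 6 animals, although Liver was higher in 6 of 6 animals. With animal as a block it passed (adjusted p = 0.0156), as did Liver minus Peyer (adjusted p = 0.000684), and both also passed without animal 75. On the dimmer CYP1A1 probe Liver minus Jejunum was 0.24 and Liver minus Peyer 1.82, and neither passed in the fit of tissue alone.
CYP2B22, counterpart of the human drug-oxidising CYP2B6, averaged -2.44 ± 1.40 in Liver, -3.32 ± 1.06 in Peyer, -3.94 ± 1.68 in Jejunum and -5.42 ± 0.56 in Spleen. It was higher in Liver than in Spleen by 2.98 ± 0.67 (adjusted p = 0.00044), and in Peyer than in Spleen by 2.10 ± 0.67 (adjusted p = 0.0112). The second call was lost with normexp (0.83, adjusted p = 0.0504), with array weights (1.49, adjusted p = 0.0608) and in the authors' deposited table (0.85, adjusted p = 0.133), and the first on slide 3 alone (1.44, adjusted p = 0.249).

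**Figure D2:**
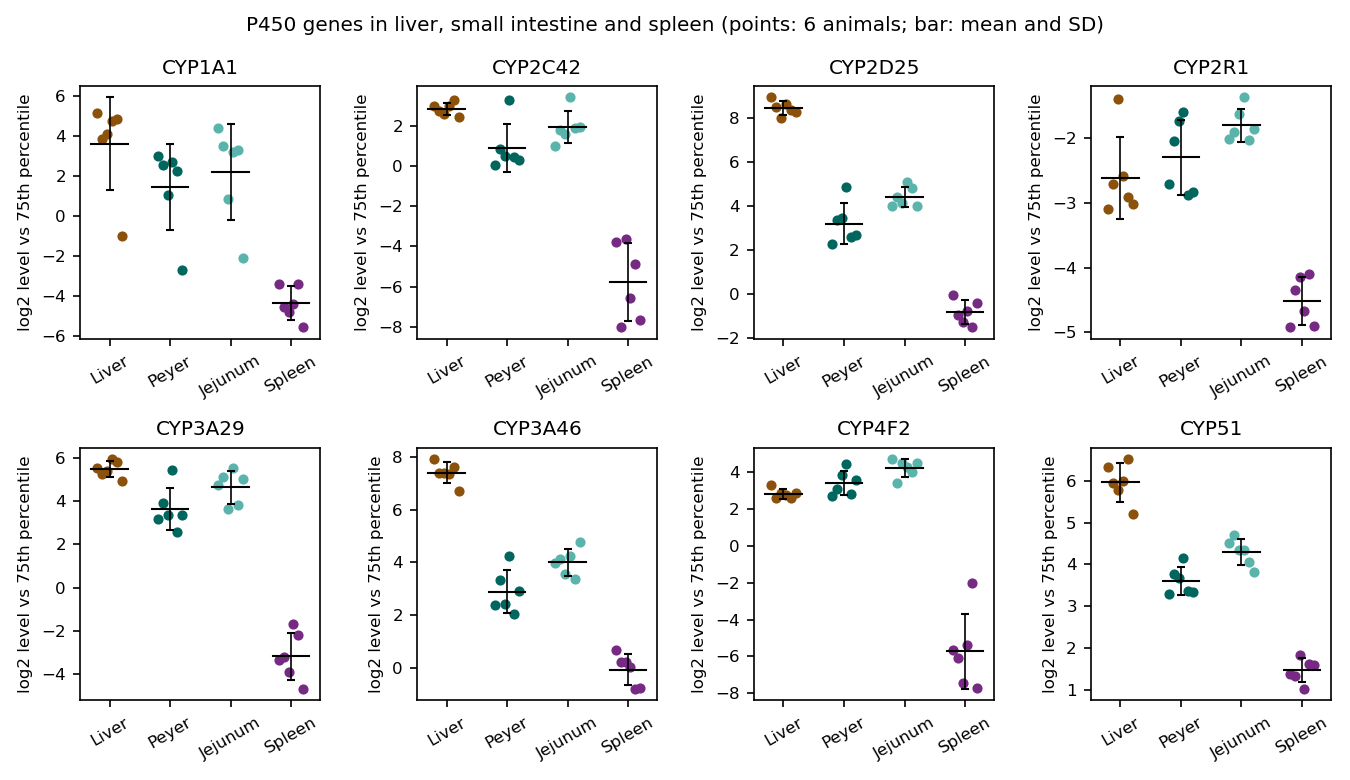
Levels (log2, relative to the 75th percentile of the array) of 8 P450 genes in Liver, Peyer, Jejunum and Spleen; each point is 1 animal, and bars give the mean and SD of 6 animals. In each panel Spleen lies lowest on average, and for CYP2R1 and CYP4F2 the Jejunum mean is above the Liver mean.

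Family 4 enzymes hydroxylate fatty acids at the chain end. CYP4A21, which in the pig hydroxylates bile acids, and CYP4A24, a porcine fatty acid hydroxylase, were read by overlapping probes and gave like values. Levels of CYP4A21 spanned 7.68 to 8.30 (median 7.86) in Liver, -1.42 to 0.65 (median -0.96) in Peyer, -1.15 to -0.83 (median -1.08) in Jejunum and -1.25 to 1.63 (median 1.05) in Spleen. CYP4A24 levels were 7.56 to 8.14 (median 7.71) in Liver, -1.1 to 0.81 (median -0.41) in Peyer, -1.35 to -0.80 (median -1.13) in Jejunum and -0.95 to 1.5 (median 0.99) in Spleen. Liver did not overlap the other tissues for either name, and stood above Spleen by 7.47 ± 0.41 (adjusted p = 1.07e-13) for CYP4A21 and 7.29 ± 0.35 (adjusted p = 1.1e-14) for CYP4A24. In Spleen 4 animals lay between 1.01 and 1.63 for CYP4A21, while animals 71 and 75 lay at -1.25 and -0.82, and CYP4A24 split the same animals. CYP4V2, a fatty acid hydroxylase, was uniform between animals. For CYP4V2 the arrays gave 2.56 to 3.12 (median 2.79) in Liver, -0.98 to -0.27 (median -0.67) in Peyer, -1.16 to -0.80 (median -1.0) in Jejunum and -0.68 to -0.29 (median -0.46) in Spleen. Its Liver minus Spleen difference was 3.30 ± 0.13 (adjusted p = 1.41e-16).
CYP4F2, which in humans inactivates leukotriene B and oxidises vitamins E and K, was the one family 4 gene highest in Jejunum. It averaged 2.83 ± 0.27 in Liver, 3.43 ± 0.66 in Peyer, 4.25 ± 0.48 in Jejunum and -5.72 ± 2.05 in Spleen. Jejunum exceeded Spleen by 9.97 ± 0.60 (adjusted p = 1.22e-12) with no overlap, but only 1 of 6 Spleen arrays was well above background, so this is a difference from a tissue near background. Liver lay below Jejunum in 6 of 6 animals, with a Liver minus Jejunum difference of -1.42 ± 0.60 (adjusted p = 0.0452), a call that was lost without animal 68, 69, 70, 71 or 75 (adjusted p 0.0675 to 0.0971) and with animal as a block (adjusted p = 0.0557). The authors' deposited table gave the opposite sign for it (2.39). The Spleen of animal 73 stood at -2.02, against -7.73 to -5.37 in the other 5, and its summed enterocyte markers stood at 1.83, against -4.59 to -2.67; their part in the result was not tested.

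Bile acid synthesis starts from cholesterol with CYP7A1, the rate-limiting enzyme of the classical route, or with CYP27A1 and CYP7B1 in the acidic route, and CYP39A1 acts on an oxysterol. All 4 genes were enriched in Liver. The CYP7A1 values ran 2.43 to 4.04 (median 3.14) in Liver, -8.92 to -6.14 (median -7.98) in Peyer, -7.87 to -5.35 (median -7.47) in Jejunum and -7.85 to -6.38 (median -6.96) in Spleen. CYP7A1 was well above background on no array of Peyer or Spleen, so Liver was at least 712-fold above Peyer and at least 403-fold above Spleen; the fitted Liver minus Spleen difference was 10.20 ± 0.48 (adjusted p = 5.42e-15), and in Jejunum 1 array of 6 detected it. CYP27A1 gave 4.29 to 5.23 (median 4.97) in Liver, -2.56 to 0.33 (median -1.91) in Peyer, -1.51 to 0.50 (median -1.32) in Jejunum and -2.38 to -1.19 (median -1.90) in Spleen. CYP27A1 was detected in every tissue, and animal 71 was its highest animal in Peyer (0.33) and in Jejunum (0.50). The range of CYP7B1 was 4.49 to 5.15 (median 4.67) in Liver, -1.28 to -0.79 (median -1.07) in Peyer, -1.34 to -0.84 (median -1.16) in Jejunum and -1.0 to 0.93 (median 0.13) in Spleen. For CYP7B1, Spleen was the second tissue, with -1.13 ± 0.21 (adjusted p = 8.23e-05) in Peyer minus Spleen and -1.22 ± 0.21 (adjusted p = 2.07e-05) in Jejunum minus Spleen, where the authors' deposited table gave 2.30 and 2.21. Levels of CYP39A1 spanned 0.58 to 1.96 (median 0.97) in Liver, -3.01 to -2.17 (median -2.55) in Peyer, -2.54 to -1.79 (median -2.21) in Jejunum and -2.96 to -2.05 (median -2.64) in Spleen. The Liver minus Spleen difference was 6.69 ± 0.39 (adjusted p = 2.57e-13) for CYP27A1, 4.65 ± 0.21 (adjusted p = 2.07e-15) for CYP7B1 and 3.72 ± 0.21 (adjusted p = 2.52e-13) for CYP39A1.
CYP51, the lanosterol demethylase of cholesterol synthesis, was well above background on all 24 arrays and averaged 5.96 ± 0.46 in Liver, 3.59 ± 0.33 in Peyer, 4.30 ± 0.32 in Jejunum and 1.47 ± 0.28 in Spleen. The 4 tissues were ordered without overlap except between Peyer and Jejunum, with 4.49 ± 0.20 (adjusted p = 2.61e-15) in Liver minus Spleen and 1.66 ± 0.20 (adjusted p = 1.63e-07) in Liver minus Jejunum.

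Of the genes for retinoid and vitamin D turnover, CYP26A1, which breaks down retinoic acid, was enriched in Liver. CYP26A1 levels were 0.12 to 2.36 (median 1.01) in Liver, -7.03 to -4.59 (median -5.11) in Peyer, -6.47 to -5.54 (median -5.77) in Jejunum and -6.29 to -5.18 (median -5.98) in Spleen. It was not well above background in Jejunum or Spleen, and Liver was at least 113-fold above Jejunum and at least 91.0-fold above Spleen, with a fitted Liver minus Spleen difference of 6.99 ± 0.37 (adjusted p = 5.51e-14). CYP2R1, the microsomal hydroxylase that makes the circulating form of vitamin D, averaged -2.62 ± 0.63 in Liver, -2.30 ± 0.57 in Peyer, -1.80 ± 0.25 in Jejunum and -4.51 ± 0.37 in Spleen. Jejunum exceeded Spleen by 2.71 ± 0.27 (adjusted p = 6.74e-09), and the Liver minus Jejunum difference was -0.82 ± 0.27 (adjusted p = 0.0111), short of the 2-fold rule, which it passed without animal 70 (-1.03). In the authors' deposited table Jejunum minus Spleen was 0.54 and Peyer minus Spleen 0.36 (adjusted p = 0.103), and neither passed.
CYP1B1, a hydrocarbon and estrogen oxidising enzyme best known outside the liver, was the only kept gene enriched in Spleen. It was kept through Spleen alone, with 6 Spleen, 5 Peyer, 4 Jejunum and 0 Liver arrays well above background. Its enrichment in Spleen is therefore not independent of the filter. For CYP1B1 the arrays gave -7.44 to -6.40 (median -7.25) in Liver, -6.59 to -3.0 (median -5.26) in Peyer, -8.22 to -4.48 (median -5.05) in Jejunum and -4.01 to -1.62 (median -3.22) in Spleen. On no Liver array was it well above background, and Liver lay at least 3.83-fold below Spleen, with a fitted difference of -4.02 ± 0.58 (adjusted p = 1.77e-06). The Jejunum minus Spleen difference was -2.61 ± 0.58 (adjusted p = 0.000486) and the Peyer minus Spleen difference -2.19 ± 0.58 (adjusted p = 0.00295). The enrichment was lost when animal 69, 71 or 75 was left out, and under quantile normalisation, median centring, normexp background correction, array weights and in the authors' deposited table.

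The 5 genes with the smallest range of tissue means were CYP1A2, CYP11A1, CYP20A1, CYP24A1 and CYP19A1. CYP11A1 cleaves the cholesterol side chain at the start of steroid synthesis, and its probe was dim everywhere. The CYP11A1 values ran -3.14 to -2.38 (median -2.66) in Liver, -4.04 to -3.43 (median -3.57) in Peyer, -3.68 to -3.30 (median -3.41) in Jejunum and -3.55 to -2.60 (median -3.29) in Spleen. CYP20A1 has no settled substrate. CYP20A1 gave -0.83 to -0.57 (median -0.69) in Liver, -1.70 to -1.26 (median -1.57) in Peyer, -1.88 to -1.37 (median -1.68) in Jejunum and -1.1 to -0.59 (median -0.91) in Spleen. Its animals lay close together, and Liver exceeded Jejunum by 0.96 ± 0.11 (adjusted p = 6.02e-08) without reaching the 2-fold rule. CYP19A1 is aromatase, which makes estrogens. The range of CYP19A1 was 1.61 to 2.26 (median 1.66) in Liver, -1.03 to 0.90 (median 0.65) in Peyer, 0.89 to 1.60 (median 1.06) in Jejunum and 0.56 to 2.16 (median 1.19) in Spleen. It passed only in Liver minus Peyer, at 1.40 ± 0.29 (adjusted p = 0.000152), and did not pass there in the authors' deposited table (0.48, adjusted p = 0.141). CYP24A1, the enzyme that breaks down vitamin D, was read on a probe that also lists RefSeq records of ITGB3 and RPL7L1. Levels of CYP24A1 spanned 10.24 to 10.48 (median 10.35) in Liver, 8.16 to 9.46 (median 9.06) in Peyer, 9.40 to 9.96 (median 9.62) in Jejunum and 9.25 to 11.04 (median 9.62) in Spleen. Its other 3 probes had tissue means between -1.13 and 3.39. CYP1A2, a caffeine-oxidising relative of CYP1A1, was flat on its brightest probe. CYP1A2 levels were -2.82 to -0.86 (median -1.78) in Liver, -2.96 to -1.16 (median -1.93) in Peyer, -2.12 to -1.03 (median -1.76) in Jejunum and -1.98 to -0.34 (median -1.33) in Spleen. None of its 6 comparisons passed on that probe, and with the mean of its probes Liver minus Spleen was 4.79. CYP21A2, the steroid hydroxylase of glucocorticoid synthesis, averaged -3.94 ± 0.76 in Liver, -5.53 ± 0.40 in Peyer, -5.24 ± 0.68 in Jejunum and -4.57 ± 0.61 in Spleen and was higher in Liver than in Peyer by 1.59 ± 0.34 (adjusted p = 0.00027), a call lost with normexp (0.50) and in the authors' deposited table (0.23, adjusted p = 0.166). Beside this, 2 markers of steroid-making cells on the array had a summed level of 0.61 to 0.96 in Liver, -4.30 to -2.99 in Peyer, -3.40 to -2.66 in Jejunum and -3.26 to -2.43 in Spleen, and their part in the result was not tested.

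Between the 2 gut portions, CYP2D25, CYP3A4 and CYP3A46 were lower in Peyer. In Peyer minus Jejunum 3 of the 32 genes were lower, 0 were higher and 29 did not pass (limma; at an unadjusted p under 0.05 and any size, 2 were higher and 8 lower), where 13.4% of all gene names passed (5.79% higher, 7.56% lower). The 3 lower genes of 32 are near the 7.56% of all gene names that were lower, and the total called is under the 13.4%. The median difference of the 32 genes was -0.65, against -0.14 over all gene names. The levels of the lower genes are given above, and for each the groups overlapped. CYP2D25 stood at -1.21 ± 0.33 (adjusted p = 0.00647) and was lower in 6 of 6 animals, with -1.37, -0.48 and -1.78 on slides 4, 5 and 6. CYP3A4 stood at -1.47 ± 0.32 (adjusted p = 0.00127) and was lower in 6 of 6 animals, with -2.01, -0.79 and -1.63 on the 3 slides, but its call was lost with normexp background correction (-0.46) and in the authors' deposited table (-0.71). CYP3A46 stood at -1.12 ± 0.33 (adjusted p = 0.00953) and was lower in 5 of 6 animals, with -1.19, -0.57 and -1.60, and fell short of 2-fold without animal 75 (-0.97) and under median centring (-0.94). In each case the smallest difference was on slide 5, which carries animals 70 and 71.
Without the Peyer array of animal 71 the count was 6 lower and 1 higher. CYP27A1 (-1.02, adjusted p = 0.00963), CYP2C42 (-1.51, adjusted p = 0.0483) and CYP3A29 (-1.37, adjusted p = 0.0108) were then also lower in Peyer, and CYP4A24 was higher (1.08, adjusted p = 0.0163). CYP3A29 also passed with animal as a block (adjusted p = 0.0286). The summed level of the enterocyte markers was 7.69 to 8.36 on the other 5 Peyer arrays and 9.37 on that of animal 71, against 8.97 to 9.47 in Jejunum. CYP4A24 was instead lowest on the Peyer array of animal 71. The part of enterocyte transcripts in the result was not tested. That array was the highest of the 6 Peyer arrays for 13 of the 22 members well above background on all 6 of them, which it was for 33.8% of all gene names.

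**Figure D3:**
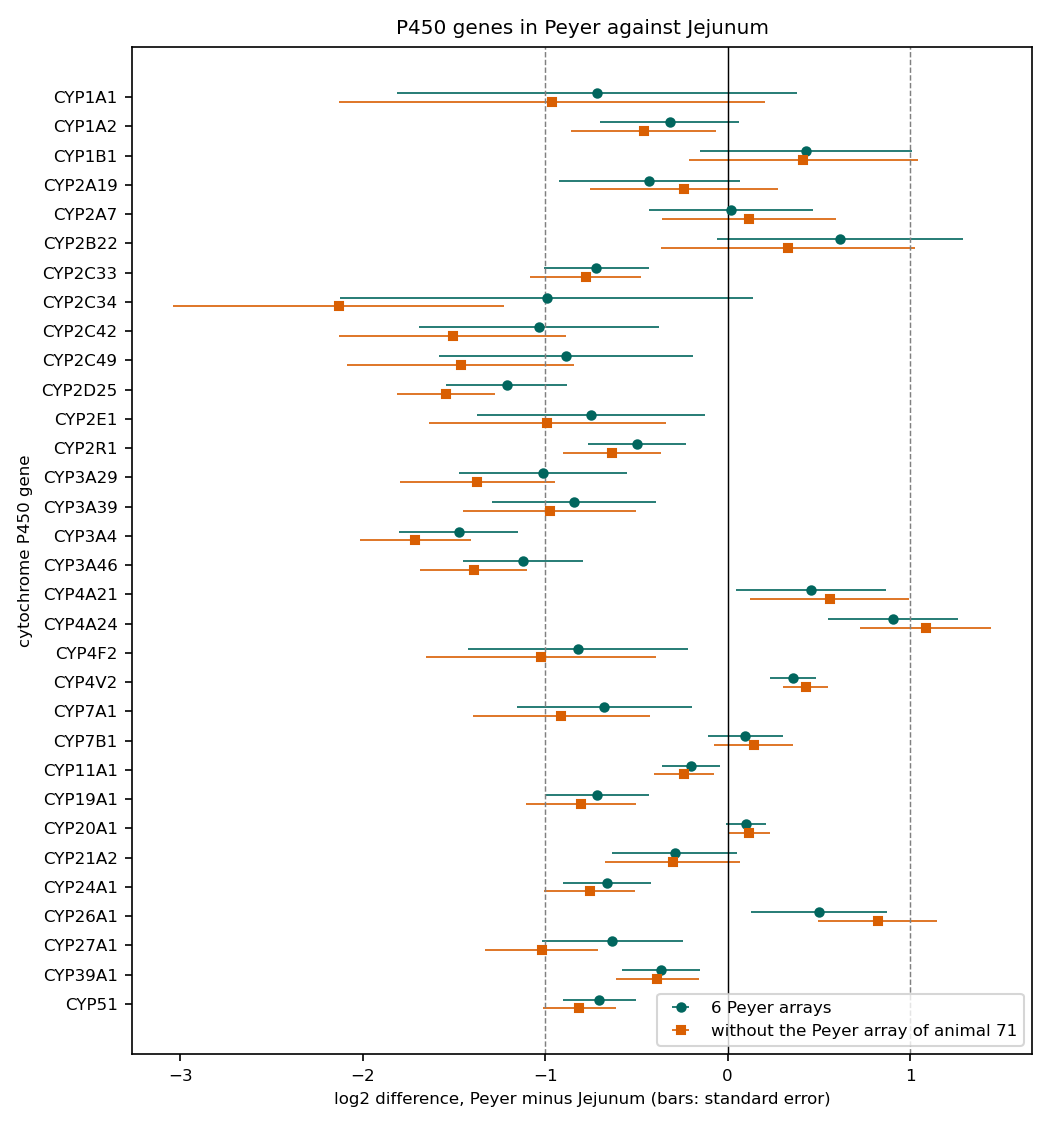
Log2 difference Peyer minus Jejunum for the 32 kept genes with all 6 Peyer arrays (circles) and without the Peyer array of animal 71 (squares); bars are standard errors, and dashed lines mark a 2-fold difference. CYP2D25, CYP3A4, CYP3A46, CYP2C42 and CYP3A29 lie beyond the lower line in both fits, and most genes move further from 0 without that array. CYP2C42 and CYP3A29 did not pass with all 6 Peyer arrays.

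Each gut portion exceeded Spleen in 12 genes and lay below it in 6, where 30.1% of all gene names passed in Jejunum minus Spleen (14.1% higher, 16.0% lower) and 25.8% in Peyer minus Spleen (9.7% higher, 16.1% lower). The 6 lower of 32 genes are near the shares of all gene names that were lower. In 3 of the Peyer minus Spleen calls neither tissue was well above background on all 6 arrays. Without the Peyer array of animal 71, CYP3A39 and CYP4A21 no longer passed in Peyer minus Spleen and CYP24A1 did (-1.02, adjusted p = 0.00151). The higher genes in both portions include CYP1A1, CYP2C42, CYP2C49, CYP2D25, CYP2R1, CYP3A29, CYP3A39, CYP3A4, CYP3A46, CYP4F2 and CYP51. CYP2C34 was higher in Jejunum alone, a call lost without animal 69, 70 or 75, and CYP2B22 in Peyer alone. With animal as a block CYP2B22 also passed in Jejunum minus Spleen (1.48, adjusted p = 0.0435). Whether the portions differ in these genes is the Peyer minus Jejunum test, which neither gene passed. The lower genes in both portions are CYP1B1, CYP2A19, CYP2E1, CYP4A21 and CYP7B1, with CYP4A24 in Jejunum and CYP2C33 in Peyer. Not all probes of these names passed. In Jejunum minus Spleen 1 of 7 CYP2A19 probes, 2 of 4 for CYP2E1, 2 of 4 for CYP4A21 and 1 of 2 for CYP4A24 were lower. In Peyer minus Spleen 2 of 7 CYP2A19 probes, 4 of 4 for CYP2E1, 1 of 4 for CYP4A21 and 3 of 6 for CYP2C33 were lower. The Peyer minus Spleen call was also lost without animal 69, 70, 71 or 73 for CYP3A39, and without animal 68 or 70 for CYP4A21. For CYP3A4 it was lost without animal 71 (0.99), with normexp (0.39) and in the authors' deposited table (0.67). For CYP2C33 it was lost without animal 71 or 73, under quantile normalisation (-0.82) and median centring (-0.85) and with normexp (-0.19), and the authors' deposited table gave 2.73. CYP2C33 was well above background on only 2 Peyer and 3 Spleen arrays. CYP2E1 stood at -1.58 ± 0.62 (adjusted p = 0.0334) in Jejunum minus Spleen and -2.33 ± 0.62 (adjusted p = 0.00311) in Peyer minus Spleen. CYP2A19 stood at -1.24 ± 0.50 (adjusted p = 0.0351) in Jejunum minus Spleen and -1.67 ± 0.50 (adjusted p = 0.00655) in Peyer minus Spleen. The Jejunum minus Spleen call was lost without animal 68, 71 or 75 for CYP2E1 (adjusted p 0.1168 to 0.1917) and without animal 68, 71 or 73 for CYP2A19 (adjusted p 0.0609 to 0.1479). For CYP2A19 it was also lost with animal as a block (adjusted p = 0.0529). In the authors' deposited table, normalised in another way, Jejunum exceeded Spleen in 23 of the genes and Peyer exceeded it in 22, and none was called lower. CYP2E1 there stood at 4.61 in Jejunum minus Spleen, and CYP2A19, CYP4A21, CYP4A24 and CYP7B1 also changed sign, while CYP1B1 did not (-0.98).
In Spleen CYP2E1 lay at -0.88 in animal 68, -1.72 in animal 75, -2.25 in animal 71, -4.24 in animal 73, -5.21 in animal 69 and -6.12 in animal 70. Albumin (ALB), made by hepatocytes, lay at 2.43, 1.14, 0.55, -1.36, -1.88 and -2.73 in the same animals, which is the same order. It was picked after its values were seen. Of the other 5 hepatocyte markers TTR, FGB and APOH also kept that order, while APOA1 and TF did not. The summed level of all 6 was 5.50, 4.06, 5.15, 5.03, 4.91 and 4.43 in those animals and did not follow it. That sum was 7.96 to 9.30 in Peyer, 9.25 to 9.79 in Jejunum and 4.06 to 5.50 in Spleen. In Jejunum FGB was well above background on no array, so the sum need not measure hepatocyte RNA in the gut. The part of hepatocyte transcripts in the Spleen values was not tested.

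Single animals stood out across tissues, which 1 array per tissue and animal allows to be read 4 times. An effect of animal beside tissue passed for 3 of the 32 genes (limma F-test, adjusted p under 0.05; 9 at an unadjusted p under 0.05), where 5.94% of all gene names passed. The 3 genes are CYP1A1 (adjusted p = 0.000186), CYP1A2 (adjusted p = 6.37e-06) and CYP2C49 (adjusted p = 0.0402). The CYP1A2 effect was measured on the nearly flat probe and did not pass with the mean of its probes (adjusted p = 0.0532).
For CYP1A1 the animal is number 75. Its Liver lay at -0.98, against 3.85 to 5.13 in the other 5 animals, and at 53.9-fold below their median. Its Peyer lay at -2.72, against 1.02 to 2.99, its Jejunum at -2.11, against 0.83 to 4.38, and its Spleen at -5.59, against -4.82 to -3.39, so that it was the lowest animal in each tissue. The dimmer CYP1A1 probe shown above gave -3.10 in its Liver, against 1.98 to 2.32, and -4.45, -3.76 and -7.22 in its Peyer, Jejunum and Spleen, where animal 69 was lower in Spleen (-7.92). Animal 70 was the next lowest for CYP1A1 in both gut portions, at 1.02 in Peyer and 0.83 in Jejunum. Without animal 75 the effect of animal still passed, with an adjusted p of 0.0396.
The Liver of animal 75 was also lowest for CYP2A19, at 4.24 against 5.89 to 7.70. The same held on each of the 7 CYP2A19 probes, which read the same RNA sample. That Liver array was lowest for 8 of the 29 members well above background on all 6 Liver arrays (27.6%), near the 21.8% of all gene names. It was lowest for CYP2B22, at -4.98 against -2.66 to -0.90. On the RefSeq probe of CYP1A2 its Liver lay at 1.37, against 2.54 to 3.38. On the flat CYP1A2 probe it was instead the highest animal in all 4 tissues, at -0.86 in Liver, -1.16 in Peyer, -1.03 in Jejunum and -0.34 in Spleen.
Animal 71 stood out for 3 of the 4 CYP2C genes. Its CYP2C34 level was 7.75 in Liver against 3.81 to 6.41, 1.71 in Peyer against -6.79 to -4.14, and 1.56 in Jejunum against -5.26 to -2.84, which is 91.0-fold and 44.7-fold above the median of the others in Peyer and Jejunum. CYP2C49 gave 7.11 against 3.0 to 5.55 in Liver, 2.12 against -1.95 to -0.37 in Peyer and 2.17 against -1.15 to 0.42 in Jejunum. CYP2C42 gave 3.27 against 0.07 to 0.85 in Peyer and 3.42 against 1.01 to 1.96 in Jejunum, but not in Liver (3.01 against 2.46 to 3.28). CYP2C33 did not share this, since animal 71 was the lowest of the 6 in Liver (4.61) and was not the highest in Peyer (-6.02) or Jejunum (-5.64). The second CYP2C34 probe and both other CYP2C49 probes also had animal 71 highest in Liver, Peyer and Jejunum, while in Spleen it was not highest for CYP2C34 or CYP2C49 on the probes used. Its Peyer array is the one that resembled its Jejunum array, and its Peyer and Jejunum values are therefore not counted as separate support. The animal effect on CYP2C49 no longer passed without animal 70, 71, 73 or 75 (adjusted p 0.175, 0.379, 0.0577 and 0.0798) without the Peyer array of animal 71 (adjusted p = 0.135), under quantile normalisation (adjusted p = 0.157) or median centring (adjusted p = 0.0536), or with no filter (adjusted p = 0.0636). Animal 70 was lowest in Liver for CYP2C34 (3.81) and CYP2C49 (3.0).

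**Figure D4:**
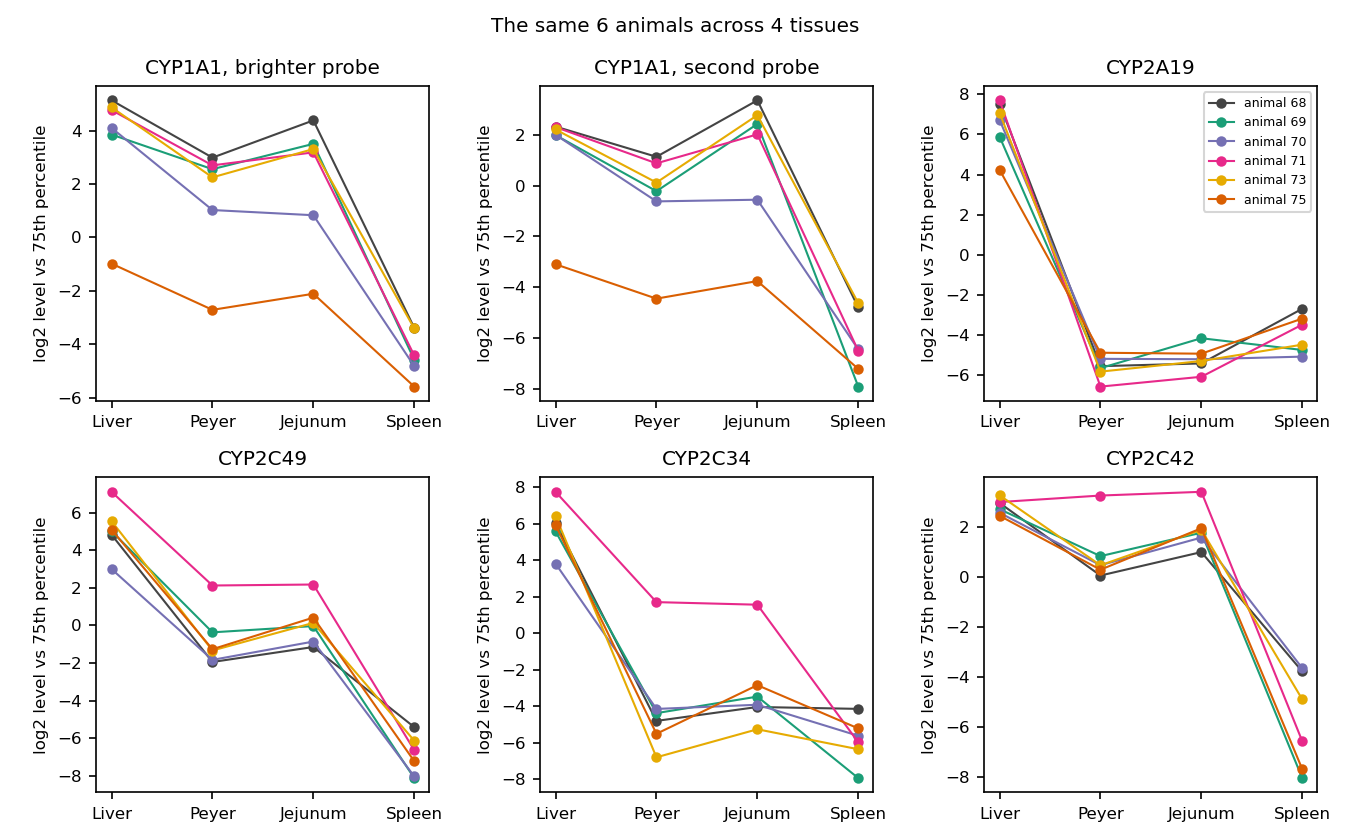
Levels (log2, relative to the 75th percentile of the array) of 5 P450 genes in Liver, Peyer, Jejunum and Spleen, with 1 line per animal; CYP1A1 is shown on both of its probes. Animal 75 runs lowest for CYP1A1 in Liver, Peyer and Jejunum on both probes, and animal 71 runs highest for CYP2C34, CYP2C49 and CYP2C42 in both gut portions.

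For 22 kept genes more than 1 probe was tested, and probes of 1 name gave opposite calls for CYP4F2 alone. Some probes of a name passed and others did not for 9 of the 22 in Jejunum minus Spleen and 7 in Peyer minus Jejunum. In the latter 1 probe each of CYP4A21, CYP26A1 and CYP11A1 was higher, where their highest probe differences were 2.56, 1.28 and 3.01. Lower there were 2 of 3 CYP3A29 probes and 3 of 4 CYP3A46 probes. The brightest CYP4F2 probe and another gave the gut and Liver pattern described above. The remaining probe averaged -4.28 ± 0.32 in Liver, -4.75 ± 0.59 in Peyer, -3.64 ± 0.41 in Jejunum and -2.97 ± 0.76 in Spleen, where the used probe averaged 2.83 ± 0.27, 3.43 ± 0.66, 4.25 ± 0.48 and -5.72 ± 2.05 (SD, n = 6 each).
The RefSeq probe of CYP1A2, whose sequence is printed above, was a Liver probe. It averaged 2.73 ± 0.74 in Liver, -8.31 ± 0.51 in Peyer, -7.57 ± 0.35 in Jejunum and -7.40 ± 0.65 in Spleen, and was well above background on the 6 Liver arrays alone. The brightest CYP1A2 probe, which the rule uses, stood between -2.96 and -0.34 on all 24 arrays.
The CYP11A1 probes also disagreed. A dimmer one averaged -5.35 ± 0.43 in Liver, -3.03 ± 1.26 in Peyer, -6.04 ± 0.36 in Jejunum and -2.79 ± 0.70 in Spleen, where the used probe spans less than 1 log2 unit between tissue means. On the dimmer probe the Peyer array of animal 71 stood at -5.44, against -3.28 to -2.15 on the other 5.
In the opposite sense, the 60 bases carried by both the CYP2A7 probe and a CYP2A19 probe returned Liver values of 1.73 to 5.42 and 1.77 to 5.54, with animal 75 lowest on both.

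**Figure D5:**
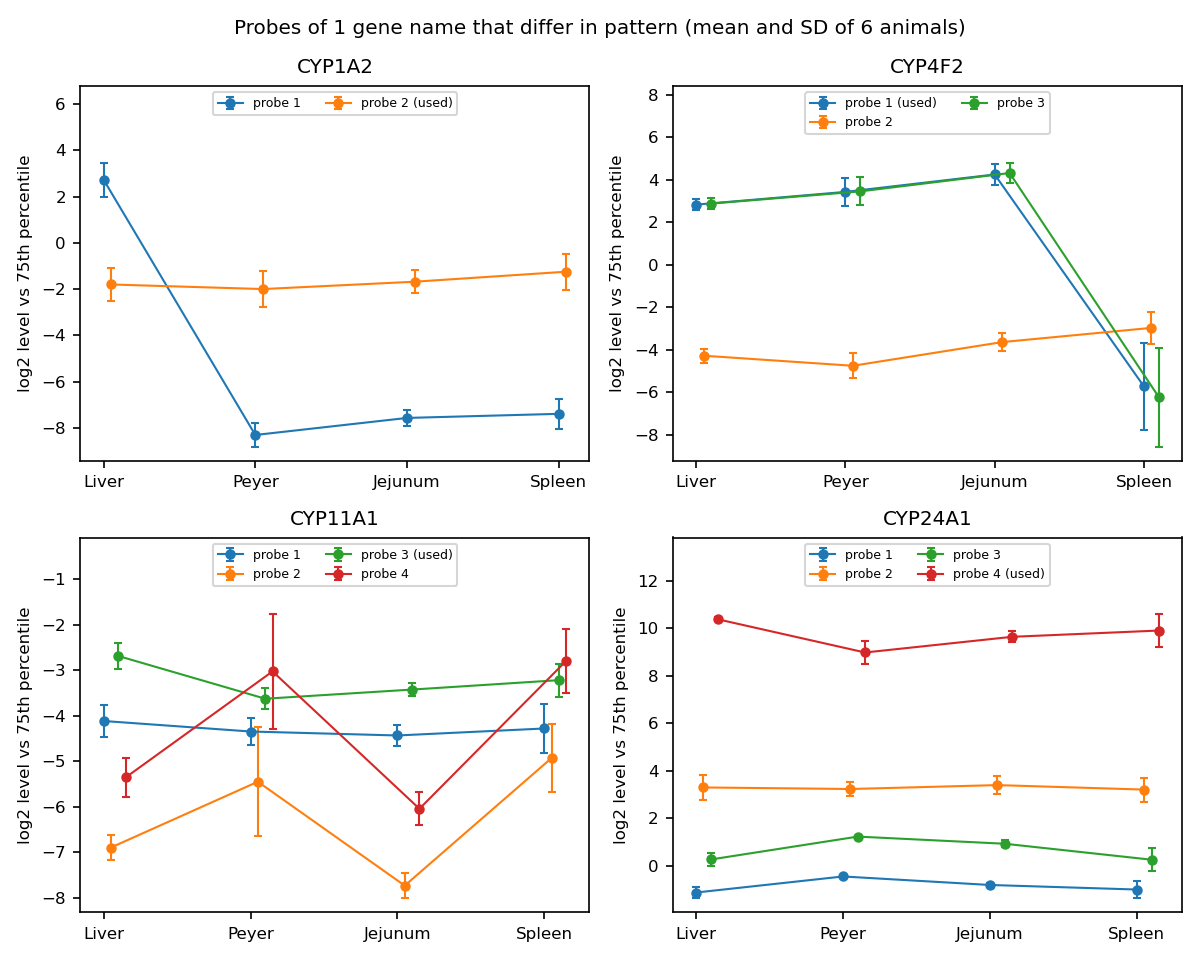
Mean and SD (n = 6) of each probe of CYP1A2, CYP4F2, CYP11A1 and CYP24A1 in Liver, Peyer, Jejunum and Spleen, as log2 level relative to the 75th percentile of the array; the probe used for the gene is marked. In the CYP1A2 and CYP4F2 panels 1 probe crosses the others between tissues, and in the CYP24A1 panel the used probe lies above the others throughout.

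The 7 genes that were not kept are CYP17A1, CYP19A2, CYP19A3, CYP27B1, CYP2U1, CYP4B1 and CYP8B1. The nearest to the threshold was CYP17A1, a steroid hydroxylase, well above background on 4 Peyer arrays and 1 Liver array, with medians of -6.22 in Liver, -6.05 in Peyer, -6.83 in Jejunum and -6.20 in Spleen. The probes named CYP8B1, the bile acid hydroxylase that sets the cholic acid share, and CYP27B1, which activates vitamin D, were well above background on none of the 24 arrays. Just inside the threshold were CYP21A2 and CYP1B1, each kept through 6 Spleen arrays, and CYP2B22, kept through 6 Peyer arrays. Each had 5 or fewer in every other tissue.

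Genes that serve P450 enzymes were read from lists of partners. Of 12 electron transfer genes 9 were tested, and in Liver minus Spleen 6 were higher and 1 lower, with a median of 1.61, where 15.8% of all gene names were higher and 22.7% lower, with a median of -0.17. The widest ranges were those of PGRMC1, a haem-binding partner of P450s, CYB5A, the cytochrome that passes on a second electron, and FDX1, the mitochondrial ferredoxin. CYB5A averaged 7.51 ± 0.28 in Liver, 3.74 ± 0.52 in Peyer, 4.81 ± 0.17 in Jejunum and 3.13 ± 0.23 in Spleen. In Peyer minus Jejunum CYB5A alone of the 9 was lower, at -1.07 ± 0.19 (adjusted p = 0.000213). This 1 of 9 is near the 7.56% of all gene names that were lower there. PGRMC1 averaged 6.46 ± 0.22 in Liver, 3.63 ± 0.42 in Peyer, 4.08 ± 0.23 in Jejunum and 1.80 ± 0.25 in Spleen, and FDX1 5.36 ± 0.24 in Liver, 2.62 ± 0.11 in Peyer, 3.09 ± 0.04 in Jejunum and 2.25 ± 0.12 in Spleen.
Of 13 genes of haem synthesis and breakdown 11 were tested. In Liver minus Jejunum 7 were higher and 4 did not pass, where 14.3% of all gene names were higher. In Liver minus Spleen 3 were higher and 1, HMOX1, lower, and these 4 of 11 are near the 38.5% of all gene names that passed. HMOX1, which breaks haem down, averaged 4.79 ± 0.15 in Liver, 2.13 ± 0.69 in Peyer, 2.41 ± 0.70 in Jejunum and 6.74 ± 0.39 in Spleen, and its Liver minus Spleen difference was -1.95 ± 0.29 (adjusted p = 3.21e-06). ALAD, of haem synthesis, was 4.05 ± 0.15 (adjusted p = 6.07e-17) higher in Liver than in Spleen, while BLVRB, a biliverdin reductase, differed there by 0.47 ± 0.22 (adjusted p = 0.0653) and did not pass.
Of 24 regulators 21 were tested, and 15 were higher in Liver minus Spleen while 6 did not pass, where 15.8% of all gene names were higher. The widest ranges were those of the xenobiotic receptors NR1I3 and NR1I2, also called CAR and PXR, and of the bile acid receptor NR1H4. NR1I3 averaged 5.80 ± 0.16 in Liver, 1.54 ± 1.07 in Peyer, 2.66 ± 0.57 in Jejunum and -5.54 ± 1.33 in Spleen. NR1I2 averaged 2.46 ± 0.21 in Liver, 1.88 ± 0.50 in Peyer, 2.87 ± 0.11 in Jejunum and -7.00 ± 1.27 in Spleen, with Jejunum highest. NR1H4 averaged 2.58 ± 0.19 in Liver, -2.01 ± 0.56 in Peyer, -1.12 ± 0.49 in Jejunum and -6.49 ± 0.45 in Spleen. In Peyer minus Jejunum 4 of the 21 were lower, where 7.56% of all gene names were lower. The vitamin D receptor VDR was lower there, at -2.21 ± 0.34 (adjusted p = 6.02e-05), as were NR0B2, a repressor of bile acid synthesis genes, at -1.78 ± 0.42 (adjusted p = 0.00223), and CEBPA, a transcription factor of hepatocytes, at -1.47 ± 0.24 (adjusted p = 0.000116).
Of 20 names of sterol synthesis genes 15 were tested, and the 15 were higher in Liver in all 3 Liver comparisons, where 15.8% (against Spleen), 14.3% (against Jejunum) and 20.4% (against Peyer) of all gene names were higher. MSMO1 and SC4MOL name the same gene. In Liver minus Spleen TM7SF2 stood at 7.78 ± 0.20 (adjusted p = 1.14e-19), MSMO1 at 6.28 ± 0.27 (adjusted p = 9.79e-16) and SC4MOL at 6.11 ± 0.26 (adjusted p = 1.11e-15). Of 10 bile acid synthesis genes 7 were tested, and the 7 were higher in Liver in the same 3 comparisons, with the same backgrounds, and with 11.59 ± 0.37 (adjusted p = 4.76e-18) in Liver minus Spleen for SLC27A5, 10.14 ± 0.36 (adjusted p = 2.7e-17) for AKR1D1 and 10.32 ± 0.46 (adjusted p = 2.49e-15) for AKR1C4. Of the 2 P450 enzymes with other symbols, TBXAS1, thromboxane synthase, was lower in Liver than in Spleen, at -1.24 ± 0.26 (adjusted p = 0.000185), and PTGIS, prostacyclin synthase, stood at 0.48 ± 0.52 (adjusted p = 0.427) and did not pass.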

How the data were processed

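Signals from 24 one-colour arrays of 4 tissues of 6 piglets were used. The deposited scanner files hold spot intensity values that, per the file headers, Agilent Feature Extraction 10.10.1.1 had corrected for background and spatial trend within each array but not between arrays. The authors' deposited log2 table, for which limma is named in the submitters' processing notes, has the same median (8.24) in each column; its steps and centring are not given in the sources used here, and it served as an alternative.

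Control spots (1319 of 61625) and 136 probes with an outlier flag were left out, and no probe spot was saturated. The log2 processed signal minus the 75th percentile of its array was tested for the 42650 of 60305 probes whose spot the scanner software marked as well above background on every array of 1 tissue or more. limma 3.58.1 in R 4.3.3 fitted tissue over 24 arrays (lmFit and eBayes, 20 residual degrees of freedom), with Benjamini-Hochberg adjustment. The fit was tested on simulated data first. The SE of a difference comes from this fit, and a fold given as "at least" sets a tissue without signal at the lowest signal well above background. The number of arrays limits the precision.

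Every kept gene is named, with the lowest, median and highest level for genes enriched in a tissue, called between the gut portions, or among the 5 with the smallest range; partner lists give up to 3 genes with the widest range and those called between the gut portions, except 1 regulator that is not reported here. The members, lists and rules were chosen with earlier results of these data known. The animal numbers pair the samples because the labels give the same animal: deviations from tissue means correlated at a mean of 0.17 over 36 same-animal pairs, of which 26 were over 0.1 and the lowest was -0.021, and at a mean of -0.034 over 180 other pairs. Alternatives were quantile normalisation, median centring, normexp (offset 50) with quantile normalisation, the authors' table, animal as a block, slide as a block or alone, 12 arrays alone, other filters, the mean of probes, array weights, each animal left out, and the Peyer array of animal 71 left out. Probe sequences were read from the scanner files, and gene names are those of the array; no genome build is named there, so no positions are given.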

Additional observations from a re-analysis of the deposited data

Results flagged for a closer look

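In 93 groups of 6 animals that were tested for a single extreme value (Dixon's test), 8 were past the test's critical value, which is 8.60%, where chance gives about 1 in 20. Animal 75 is the extreme animal in 4 of them. CYP1A1 was low in animal 75, at -0.98 in Liver against 3.85 to 5.13 in the other animals, and at -2.72 in Peyer against 1.02 to 2.99. The same animal had the lowest CYP27A1 in Liver, at 4.29 against 4.94 to 5.23, and the highest CYP3A39 in Jejunum, at 0.044 against -1.87 to -1.33. CYP2C42 in Peyer was highest in animal 71, with 3.27 where the others had 0.07 to 0.85. CYP19A1 was lowest in Peyer of animal 69, at -1.03 against 0.34 to 0.90, and highest in Jejunum of animal 73, at 1.60 against 0.89 to 1.13. CYP2R1 was highest in Liver of animal 70, at -1.39 against -3.10 to -2.59. The cause of these values was not tested.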

How the results depend on the processing

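Of 192 differences (32 genes in 6 comparisons) 112 were called. Over the alternatives, values of called differences kept direction and call 1869 times, lost the call 99 times and changed sign 13 times; for those not called the sign changed 12 times and a call was gained 60 times. Of the 25 sign changes, 22 came from the authors' table, in comparisons across slide sets, and 3 from the mean of probes. Differences over 44600 probes correlated between the authors' table and the scanner values at 0.962 in Liver minus Spleen and 0.956 in Peyer minus Jejunum, against 0.706 (Liver minus Jejunum), 0.694 (Liver minus Peyer), 0.560 (Jejunum minus Spleen) and 0.322 (Peyer minus Spleen). The cause was not tested.
In the authors' table, Jejunum minus Spleen and Peyer minus Spleen were 3.65 and 3.28 for CYP2A19, 2.87 and 2.67 for CYP2A7, 3.19 and 2.73 for CYP2C33, 4.61 and 3.95 for CYP2E1, 3.54 and 3.99 for CYP4A21, 3.25 and 4.11 for CYP4A24, 1.38 and 1.73 for CYP4V2, and 2.21 and 2.30 for CYP7B1. There Jejunum minus Spleen was 1.53 for CYP26A1, Peyer minus Spleen was 1.49 for CYP39A1 and 2.05 for CYP7A1, Liver minus Jejunum and Liver minus Peyer were 2.39 and 3.22 for CYP4F2, and Liver minus Peyer was -0.72 for CYP24A1. With the mean of probes, CYP1A2 was 4.79 in Liver minus Spleen and 5.09 in Liver minus Jejunum, and CYP24A1 was -0.045 in Liver minus Peyer.
The authors' table gave 23 higher and 0 lower genes in Jejunum minus Spleen, 22 and 0 in Peyer minus Spleen, and 0 lower in Liver minus Jejunum. Normexp gave 1 lower gene in Liver minus Jejunum, 0 in Liver minus Peyer, 3 in Jejunum minus Spleen and 0 in Peyer minus Spleen. Median centring gave 1 higher gene in Peyer minus Jejunum and 3 lower in Peyer minus Spleen, and no filter gave 1 lower in Liver minus Jejunum. Array weights gave 1 higher and 9 lower genes in Peyer minus Jejunum and 7 animal effects. In Peyer minus Jejunum, slides 4 and 5 alone gave 0 lower genes and slide 6 gave 5. The count enriched in Spleen was 0 under quantile normalisation, median centring, normexp, the authors' table and array weights. Requiring signal on 24 arrays left 17 genes, with 12 higher and 0 lower in Liver minus Spleen, 11 and 0 in Liver minus Jejunum, 14 and 0 in Liver minus Peyer, 5 and 3 in Jejunum minus Spleen, 5 and 2 in Peyer minus Spleen, 10 enriched in Liver, 0 in Spleen, and 1 animal effect.
With animal as a replicate block, which uses the pairing, 1 gene was lower in Liver minus Jejunum; 5 calls were gained (CYP1A1 in Liver minus Jejunum and Liver minus Peyer, CYP2B22 in Liver minus Jejunum and Jejunum minus Spleen, CYP3A29 in Peyer minus Jejunum), 2 were lost (CYP2A19 in Jejunum minus Spleen, CYP4F2 in Liver minus Jejunum), and it changed no other call.
Leaving out 1 animal gave 25 higher and 1 lower gene each time in Liver minus Spleen, 0 to 1 higher and 2 to 6 lower in Peyer minus Jejunum, 20 to 22 and 0 to 1 in Liver minus Jejunum, 23 to 25 and 1 in Liver minus Peyer, 11 to 12 and 4 to 6 in Jejunum minus Spleen, and 10 to 12 and 5 to 7 in Peyer minus Spleen. It gave 17 to 18 genes enriched in Liver, 0 to 1 in Spleen, 0 in Peyer and Jejunum, and 2 to 3 animal effects. Without the Peyer array of animal 71, Peyer minus Jejunum gave 1 higher and 6 lower genes. CYP7A1, CYP26A1, CYP3A4 and CYP1B1 have only lower bounds against a tissue with no array well above background. CYP2C49 and CYP4F2 (1 of 6 arrays in Spleen), CYP2C34 (2 in Spleen), CYP2C33 (2 in Peyer) and CYP2A7 (2 in Jejunum) were also near background, which makes fitted differences there less certain.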

Other observations

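The array also holds 8 P450 names written in other capitals, which the rule does not take. Of these, the probe named Cyp27a1, designed on the human record of the bile acid enzyme, averaged 7.17 in Liver, 1.16 in Peyer, 1.45 in Jejunum and 0.92 in Spleen, and was well above background on all 24 arrays. The probe named cyp46a1, after the human enzyme that hydroxylates cholesterol in brain, was well above background on 5 Liver, 0 Peyer, 2 Jejunum and 6 Spleen arrays, with -4.39, -6.61, -5.71 and -3.80 as tissue means. A probe named Cyp8b1 was well above background on 0 Liver, 4 Peyer, 5 Jejunum and 1 Spleen arrays. Its tissue means were -5.95, -5.75, -5.18 and -6.33.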
